A study of Mus musculus with 18 samples.

Results

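The 10 genes described here encode the receptor chains and Janus kinases (JAKs) through which macrophages sense the cytokines used to polarize them. They were taken by symbol, as a list drawn up with earlier results of these data known, and all 10 were found among the 24411 gene symbols measured: Ifngr1 and Ifngr2 for interferon gamma (IFN-γ), Il4ra, Il13ra1 and Il2rg for interleukin (IL)-4 and IL-13, Il10ra and Il10rb for IL-10, and the kinases Jak1, Jak2 and Jak3. The cells were RAW264.7, a macrophage-like line from the mouse, and their poly(A) RNA was sequenced. The KO groups came from a line in which Kdm7a, a histone demethylase, was disrupted with CRISPR/Cas9 and a Kdm7a guide RNA, and the control groups came from cells given Cas9 with a control guide RNA. Each genotype was studied under M1 conditions (IFN-γ at 2 ng/ml with bacterial lipopolysaccharide, LPS, at 0.1 µg/ml), under M2 conditions (human transforming growth factor, TGF-β1, at 2 ng/ml together with the interleukins IL-4, IL-10 and IL-13, each at 20 ng/ml) and without stimulation (M0). Stimulation lasted 48 h, and there were 3 libraries in each of 6 groups, so a mean ± SD always has n = 3. Only 1 KO line and 1 control line were named, so differences between the lines that do not come from Kdm7a cannot be told apart from effects of the knockout.

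As background, each of these cytokines assembles a receptor from a pair of chains, and kinases already bound to the chains then phosphorylate each other, the receptor and a STAT transcription factor. IFN-γ binds IFNGR1, which carries JAK1, and recruits IFNGR2, which carries JAK2. IL-4 binds IL4RA, which pairs either with the common gamma chain IL2RG (with JAK3) or with IL13RA1. The pair of IL4RA and IL13RA1 also responds to IL-13, and STAT6 is the main output. IL-10 binds IL10RA, the ligand-specific chain that carries JAK1, and recruits IL10RB, a chain shared with other cytokines that carries the kinase TYK2. Its main output in macrophages is STAT3, and IL-10 is known for restraining inflammatory gene expression.

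Values are TPM, shares of a fixed total after division by transcript length, so levels of different genes can be compared within a library while sequencing depth is unknown. A gene was called where its Benjamini-Hochberg adjusted p in limma, fitted to log2(TPM + 1), was below 0.05. The fit covered 11548 genes that reached 1 TPM in 3 or more libraries, and all 10 genes passed that filter. None of the 10 was at 0 in any library, and their values lay between 3.40 and 266.8 TPM. Kdm7a, the targeted gene, was lower in the KO libraries in each condition with no overlap: 7.19 to 7.66 TPM in KO cells against 28.71 to 30.32 TPM in control cells under M1, 5.83 to 7.54 TPM in KO cells against 22.21 to 24.47 TPM in control cells under M2, and 3.25 to 3.52 TPM in KO cells against 10.96 to 11.29 TPM in control cells in M0. An antisense gene, 4930599N23Rik, overlaps Kdm7a, and whether strand was used in counting is not given in the sources used here. All 10 macrophage markers examined averaged at least 1 TPM in every group. Markers of T cells, B cells, fibroblasts, epithelial cells and neutrophils averaged below 1 TPM, apart from Lck and Cd79a; the B cell marker Ms4a1 was at 0 in all 18 libraries. Under M1 the median over all 11548 genes of the log2 fold change against M0 was -0.43 in KO cells and -0.38 in control cells. It became 0.083 in KO cells and 0.084 in control cells when libraries were rescaled with trimmed-mean (TMM) factors, so M1 changes are also given relative to that median.

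Gene positions in mm10 are those of RefSeq, with strands from GENCODE. Ifngr1 lies at chr10:19591949-19610229 (+ strand), Ifngr2 at chr16:91547059-91564007 (+ strand) and Il10rb at chr16:91406157-91425834 (+ strand), on the same chromosome as Ifngr2. Il4ra lies at chr7:125552271-125579474 (+ strand), Il13ra1 at chrX:36112108-36171262 (+ strand), Il2rg at chrX:101264385-101268255 (- strand) and Il10ra at chr9:45253837-45269149 (- strand). Of the kinase genes, Jak1 lies at chr4:101151974-101265282 (- strand), Jak2 at chr19:29251803-29313095 (+ strand) and Jak3 at chr8:71676383-71690577 (+ strand). Values are per gene, so nothing can be read about exons or isoforms. Proximal promoters are shown because the results concern RNA levels of these genes. RefSeq windows from 250 bases before to 50 bases after the start site were available for 8 of the 10 genes, and Il10ra and Il10rb are named only. Those of both IFN-γ receptor chains, of Il4ra and of Jak2 are printed 5′ to 3′ along the gene, in build GRCm38.p6 (mm10), because they belong to the gene that fell under M1, its partner chain, and the receptor chain and kinase with the widest ranges. The windows lie at chr10:19591699-19591998 (+ strand) for Ifngr1, chr16:91546809-91547108 (+ strand) for Ifngr2, chr7:125552021-125552320 (+ strand) for Il4ra and chr19:29251553-29251852 (+ strand) for Jak2. Capitals mark matches, on either strand, to the motifs listed after the sequences.
Ifngr1: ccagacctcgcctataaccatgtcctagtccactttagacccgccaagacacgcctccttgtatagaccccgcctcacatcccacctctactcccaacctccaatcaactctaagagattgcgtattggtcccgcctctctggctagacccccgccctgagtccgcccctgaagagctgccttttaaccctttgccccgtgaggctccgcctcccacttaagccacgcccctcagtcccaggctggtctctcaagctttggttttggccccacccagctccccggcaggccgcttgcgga
Ifngr2: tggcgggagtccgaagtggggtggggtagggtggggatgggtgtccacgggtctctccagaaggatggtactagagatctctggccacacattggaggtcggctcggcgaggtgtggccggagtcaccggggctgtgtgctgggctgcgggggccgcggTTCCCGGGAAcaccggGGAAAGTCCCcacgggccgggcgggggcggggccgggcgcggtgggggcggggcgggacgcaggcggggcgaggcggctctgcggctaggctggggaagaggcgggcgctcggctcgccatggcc
Il4ra: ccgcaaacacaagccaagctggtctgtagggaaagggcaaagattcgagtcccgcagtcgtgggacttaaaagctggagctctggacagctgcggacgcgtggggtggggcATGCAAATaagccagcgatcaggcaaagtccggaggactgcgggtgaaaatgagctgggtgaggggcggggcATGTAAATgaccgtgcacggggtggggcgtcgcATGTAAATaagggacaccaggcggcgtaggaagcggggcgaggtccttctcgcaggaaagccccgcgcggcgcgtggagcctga
Jak2: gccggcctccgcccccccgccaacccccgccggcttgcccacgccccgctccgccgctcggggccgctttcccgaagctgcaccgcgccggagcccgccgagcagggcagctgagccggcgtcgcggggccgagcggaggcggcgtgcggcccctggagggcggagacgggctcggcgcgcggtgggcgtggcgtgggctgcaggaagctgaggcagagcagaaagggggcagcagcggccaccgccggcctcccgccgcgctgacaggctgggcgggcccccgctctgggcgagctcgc

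A STAT6-type site (TTC and GAA with 4 bases between them), an interferon-response core (ISRE, GAAA and GAAA with 2 bases between them) and a κB site (GGGA, any base, then TTTCC) were sought on both strands of the 8 windows. The motifs came from general knowledge, and matches of different motifs may overlap, though none of those found here did. Ifngr2 held a STAT6-type match, TTCCCGGGAA, 91 to 82 bases before its start site, and a κB match, GGAAAGTCCC, 75 to 66 bases before it. No ISRE match was found in any of the 8 windows, which says only that those letters are not in them. Among all 32851 RefSeq mouse windows of the same length, 6.95% held the STAT6-type site, 3.44% ISRE and 0.411% the κB site. The capitals in Il4ra are 3 matches to an octamer-type motif, ATGNAAAT, searched after the letters had been seen; 5.67% of windows held at least 1 match and 0.0457% held 3 or more. These matches are descriptions of letters, and no binding was measured. By base composition the Jak2 window was the richest of the 8, with 81.0% G+C and 44 CpG, and that of Il2rg the poorest, with 50.3% and 3, beside medians of 52.7% and 7 over all windows.

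**Figure D1:**
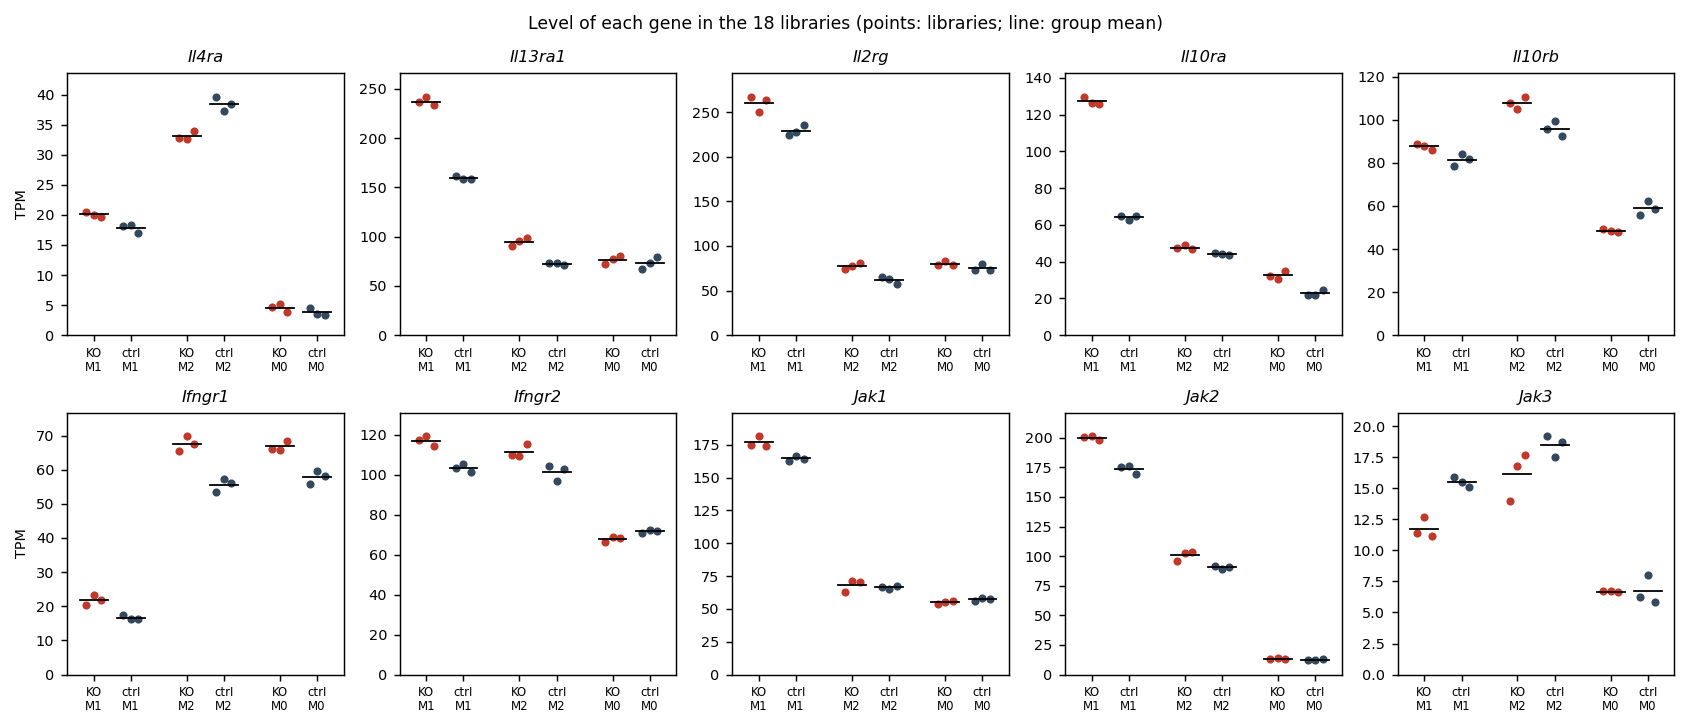
Levels of the 10 genes in TPM (vertical axes, linear from 0, each with its own range) in each library (points; KO red, control, written ctrl, dark) with group means (horizontal lines) under M1, M2 and M0. Jak2 is near 13 TPM in M0 and above 169 TPM in every M1 library, and Ifngr1 is the gene with its lowest values under M1.

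The chains of the IFN-γ receptor moved in opposite directions under M1: Ifngr1, the ligand-binding chain, fell under M1 in both genotypes, while Ifngr2, the signal-initiating partner, rose under both stimulations. Ifngr1 under M1 stood at 20.4, 23.2 and 21.8 TPM in KO cells, against 17.5, 16.1 and 16.1 TPM in control cells. Ifngr1 under M2 stood at 65.5, 69.8 and 67.7 TPM in KO cells, against 53.6, 57.2 and 56.1 TPM in control cells. Ifngr1 in M0 stood at 66.1, 65.8 and 68.5 TPM in KO cells, against 55.7, 59.7 and 58.3 TPM in control cells. The 6 M1 libraries lay below all 12 others, and within each condition every KO library lay above every control library. Ifngr1 thus fell to 21.8 ± 1.4 TPM in M1 KO cells, against 66.8 ± 1.5 TPM in M0 KO cells, a log2 fold change of -1.58 ± 0.049 (SE; limma adjusted p = 2.4e-17), and in control cells the change was -1.74 ± 0.049 (SE; limma adjusted p = 4.9e-18). Relative to the median of all genes these were -1.15 in KO cells and -1.36 in control cells. Under M2 Ifngr1 was not called, with log2 fold changes of 0.017 in KO cells (limma adjusted p = 0.764) and -0.057 in control cells (limma adjusted p = 0.318). These are bulk libraries, so less RNA per cell and fewer cells with the transcript cannot be told apart.

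Ifngr2 under M1 measured 118, 119 and 115 TPM in KO cells, against 103, 106 and 101 TPM in control cells. Ifngr2 under M2 measured 109.9, 109.5 and 115 TPM in KO cells, against 104, 96.9 and 103 TPM in control cells. Ifngr2 in M0 measured 66.5, 68.9 and 68.3 TPM in KO cells, against 70.7, 72.5 and 72.1 TPM in control cells. All 12 stimulated libraries lay above all 6 unstimulated libraries. Its log2 fold change was 0.78 ± 0.035 in KO cells and 0.52 ± 0.035 in control cells under M1. For M2 it was 0.71 ± 0.035 in KO cells and 0.49 ± 0.035 in control cells (limma adjusted p at most 1.8e-10). Between M1 and M2 it was not called on TPM as deposited (0.069 in KO cells and 0.028 in control cells), but it was called higher under M1 with TMM factors (0.59 in KO cells and 0.51 in control cells). In KO cells it was also called without KO M1 replicate 3 (limma adjusted p = 0.0475) or KO M2 replicate 3 (0.0239). The span of its 6 group means, 0.78 on the log2 scale, was the narrowest of the 10 genes.

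In the IL-4 and IL-13 receptors, Il4ra, the chain shared by both receptor types, rose under both stimulations and was highest under M2, whereas Il13ra1 and Il2rg, its alternative partners, rose mainly under M1. Il4ra under M1 reached 20.5, 20.1 and 19.7 TPM in KO cells, against 18.1, 18.4 and 17.1 TPM in control cells. Il4ra under M2 reached 32.8, 32.5 and 33.9 TPM in KO cells, against 39.6, 37.3 and 38.5 TPM in control cells. Il4ra in M0 was at 4.63, 5.14 and 3.84 TPM in KO cells, against 4.53, 3.48 and 3.40 TPM in control cells. The M2, M1 and M0 libraries formed 3 separate ranges, and the genotypes overlapped in M0 only. The log2 fold change under M2 was 2.63 ± 0.081 (SE; limma adjusted p = 2.48e-16) in KO cells, a 7.29-fold ratio of means, and 3.05 ± 0.081 (SE; limma adjusted p = 3.39e-17) in control cells, a 10.1-fold ratio. Under M1 it was 1.94 ± 0.081 in KO cells and 1.98 ± 0.081 in control cells (limma adjusted p at most 4.6e-15).

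Il13ra1 under M1 reached 236, 242 and 233 TPM in KO cells, against 162, 159 and 158 TPM in control cells. Il13ra1 under M2 was at 90.3, 95.3 and 98.5 TPM in KO cells, against 73.2, 72.9 and 71.1 TPM in control cells. Il13ra1 in M0 was at 72.2, 77.2 and 80.8 TPM in KO cells, against 66.7, 73.2 and 79.1 TPM in control cells. M1 libraries were the highest in both genotypes, and the 3 M2 control libraries overlapped those of M0. Under M1 it rose by 1.62 ± 0.050 in KO cells and 1.12 ± 0.050 in control cells on the log2 scale. Under M2 it rose in KO cells (0.30 ± 0.050 SE, limma adjusted p = 2.22e-05), while the control change was -0.008 ± 0.050 (SE; limma adjusted p = 0.9).

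Il2rg under M1 reached 267, 250.2 and 264 TPM in KO cells, against 224, 228 and 235 TPM in control cells. Il2rg under M2 was at 74.4, 77.9 and 81.3 TPM in KO cells, against 65.1, 62.5 and 57.2 TPM in control cells. Il2rg in M0 was at 78.7, 82.7 and 78.7 TPM in KO cells, against 73.2, 80.1 and 73.2 TPM in control cells. The common gamma chain was the most abundant receptor chain under M1, and the 6 M1 libraries lay above all others. The log2 fold change under M1 was 1.69 ± 0.048 in KO cells and 1.59 ± 0.048 in control cells. Under M2 the gene fell in control cells (-0.29 ± 0.048 SE, limma adjusted p = 2.6e-05), and its KO value was -0.040 ± 0.048 (SE; limma adjusted p = 0.47), with overlapping libraries.

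For the IL-10 receptor, Il10ra, the ligand-binding chain, was highest under M1, and Il10rb, the shared chain, rose under both stimulations. Il10ra under M1 measured 129.6, 126 and 126 TPM in KO cells, against 65.1, 63.0 and 64.7 TPM in control cells. Il10ra under M2 measured 47.4, 49.0 and 46.8 TPM in KO cells, against 44.8, 44.4 and 43.6 TPM in control cells. Il10ra in M0 measured 32.5, 30.8 and 34.8 TPM in KO cells, against 21.9, 22.1 and 24.4 TPM in control cells. No neighbouring groups overlapped: the order was M1 KO, M1 control, M2 KO, M2 control, M0 KO and M0 control, and KO libraries were the higher in each condition. Il10ra rose under M1 by 1.93 ± 0.045 in KO cells, 3.90-fold in means, and by 1.46 ± 0.045 in control cells, 2.82-fold, on the log2 scale. Under M2 it rose by 0.53 ± 0.045 in KO cells and 0.93 ± 0.045 in control cells, with limma adjusted p at most 2.33e-09 over these comparisons.

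Il10rb under M1 measured 88.9, 88.0 and 86.2 TPM in KO cells, against 78.6, 84.0 and 81.7 TPM in control cells. Il10rb under M2 measured 108, 105 and 111 TPM in KO cells, against 95.7, 99.6 and 92.5 TPM in control cells. Il10rb in M0 measured 49.4, 48.5 and 47.8 TPM in KO cells, against 55.9, 62.4 and 58.5 TPM in control cells. All stimulated libraries lay above all unstimulated ones, and M0 was the condition in which KO libraries lay below control libraries. The log2 fold change was 0.84 ± 0.041 in KO cells and 0.46 ± 0.041 in control cells under M1, and 1.13 ± 0.041 in KO cells and 0.69 ± 0.041 in control cells under M2. M1 levels were lower than M2 levels on TPM as deposited, with log2 fold changes of -0.29 in KO cells and -0.23 in control cells, but the direction turned with TMM factors, to 0.23 in KO cells and 0.25 in control cells.

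Among the kinases, Jak2, which serves IFNGR2, showed the widest range of the 10 genes, with means of 199.8 ± 1.6 TPM in M1 KO cells and 12.7 ± 0.58 TPM in M0 control cells at its ends. Jak2 under M1 reached 200.4, 201 and 198 TPM in KO cells, against 175, 176 and 169.5 TPM in control cells. Jak2 under M2 reached 96.1, 103 and 104 TPM in KO cells, against 92.0, 88.9 and 90.5 TPM in control cells. Jak2 in M0 was at 13.1, 13.9 and 13.5 TPM in KO cells, against 12.2, 12.5 and 13.3 TPM in control cells. The conditions formed 3 separate ranges, with M1 above M2 and M2 above M0. The M1 log2 fold change was 3.79 ± 0.039 (SE; limma adjusted p = 6.93e-25) in KO cells, a 14.8-fold ratio of means, and 3.68 ± 0.039 (SE; limma adjusted p = 1.27e-24) in control cells, a 13.7-fold ratio. Under M2 it was 2.81 ± 0.039 in KO cells and 2.75 ± 0.039 in control cells, or 7.47-fold in KO cells and 7.15-fold in control cells.

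Jak1, which serves all 3 receptor families here, under M1 reached 175, 181 and 174 TPM in KO cells, against 163, 167 and 165 TPM in control cells. Jak1 under M2 was at 62.8, 71.4 and 70.5 TPM in KO cells, against 66.8, 65.1 and 67.4 TPM in control cells. Jak1 in M0 was at 54.0, 55.1 and 55.7 TPM in KO cells, against 55.9, 58.0 and 57.6 TPM in control cells. M1 libraries stood well above all others, while M2 exceeded M0 by a small margin without overlap. Its log2 fold change was 1.67 ± 0.040 in KO cells and 1.51 ± 0.040 in control cells under M1, and 0.30 ± 0.040 in KO cells and 0.21 ± 0.040 in control cells under M2 (limma adjusted p at most 0.000119). Raver2 overlaps Jak1 on the opposite strand and reached at most 0.05 TPM.

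Jak3, which serves IL2RG, was the least abundant kinase under both stimulations and in M0. Jak3 under M1 was at 11.4, 12.7 and 11.2 TPM in KO cells, against 15.9, 15.6 and 15.1 TPM in control cells. Jak3 under M2 was at 14.0, 16.8 and 17.7 TPM in KO cells, against 19.2, 17.5 and 18.8 TPM in control cells. Jak3 in M0 was at 6.70, 6.71 and 6.65 TPM in KO cells, against 6.27, 7.98 and 5.84 TPM in control cells. Stimulated libraries lay above unstimulated ones, and M2 control and M2 KO libraries overlapped. It rose by 0.73 ± 0.088 in KO cells and 1.11 ± 0.088 in control cells under M1, and by 1.15 ± 0.088 in KO cells and 1.35 ± 0.088 in control cells under M2 (limma adjusted p at most 1.55e-07). Insl3 overlaps Jak3 on the same strand and reached at most 2.43 TPM. M1 levels of Jak3 were lower than M2 levels on TPM as deposited, with log2 fold changes of -0.42 in KO cells and -0.24 in control cells. The sign turned with TMM factors, to 0.066 in KO cells, which was not called (limma adjusted p = 0.452). In control cells it turned to 0.23, which was called (limma adjusted p = 0.0156). As deposited, the control difference was not called without control M2 replicate 1 (limma adjusted p = 0.0564).

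**Figure D2:**
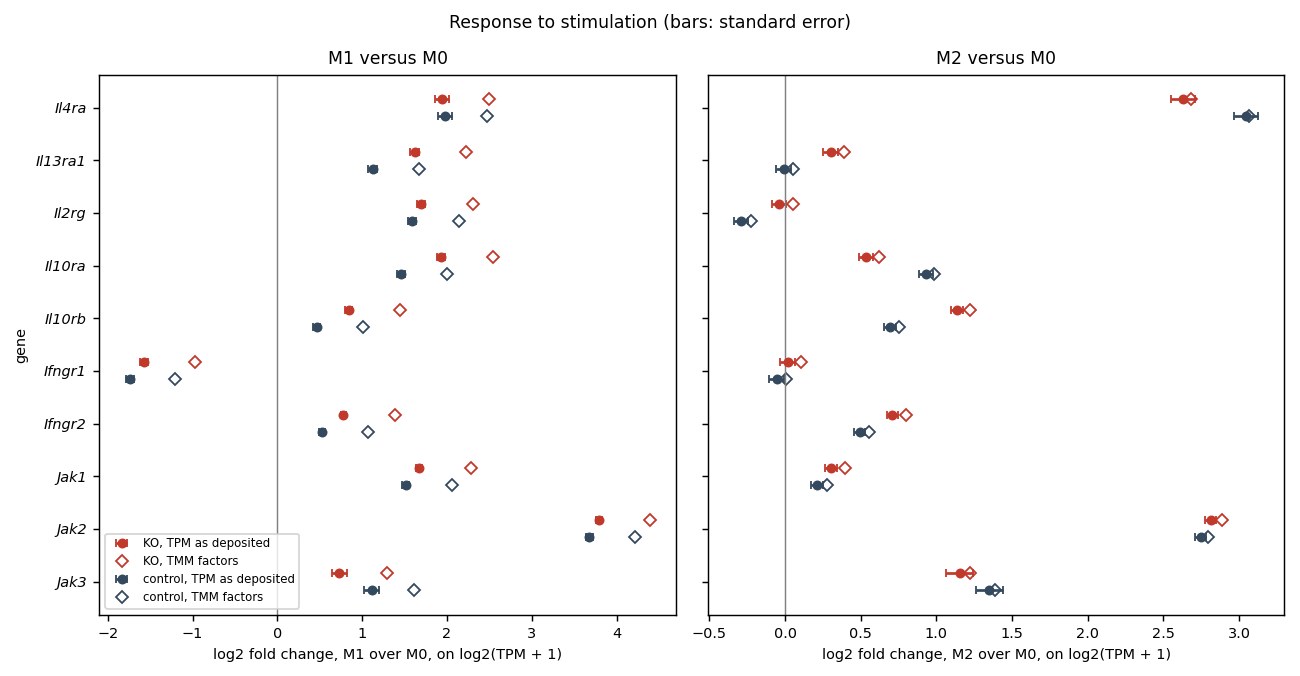
Log2 fold changes on log2(TPM + 1) for M1 over M0 (left) and M2 over M0 (right) in KO (red) and control (dark) cells, filled circles for TPM as deposited with standard errors and open diamonds for TMM-scaled values. In the left panel Ifngr1 lies left of 0 and the other 9 genes lie right of it under both scalings.

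Against M0, 9 of the 10 genes were called higher under M1 and 1 lower, in KO cells and in control cells alike, whereas 32.0% of all tested genes were called higher and 58.4% lower in KO cells, and 32.2% higher and 56.9% lower in control cells. Calls were therefore common among all genes. The median log2 fold change of the 10 genes was 1.64 in KO cells and 1.29 in control cells, beside the all-gene medians of -0.43 in KO cells and -0.38 in control cells. Relative to those medians the rises of the 9 genes lay between 1.16 (Jak3) and 4.22 (Jak2) in KO cells, and between 0.84 (Il10rb) and 4.06 (Jak2) in control cells. With TMM factors the counts were again 9 higher and 1 lower, beside 47.6% of all genes higher and 42.6% lower in KO cells and 47.6% and 41.9% in control cells, and the share of higher calls among all called genes moved to 52.8% in KO cells, against 35.4% as deposited, and to 53.2% in control cells, against 36.1% as deposited. Under M2, 8 of the 10 genes were called higher and 0 lower in KO cells, where 29.6% of all genes were called higher and 43.2% lower, and the share of higher calls among called genes was 50.7% with TMM factors, against 40.7% as deposited. In limma 0 of the 10 were also lower at an unadjusted p below 0.05, and with TMM factors, which called 35.6% of all genes higher and 34.5% lower. In control cells 7 were called higher and 1, Il2rg, lower, where 28.4% and 37.0% of all genes were. The median of the 10 genes was 0.62 in KO cells and 0.59 in control cells, beside -0.088 in KO cells and -0.051 in control cells for all genes.

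Set against M2 directly, M1 gave 5 genes higher and 4 lower in each genotype: Il13ra1, Il2rg, Il10ra, Jak1 and Jak2 were higher, and Il4ra, Ifngr1, Il10rb and Jak3 were lower. Of all genes, 30.3% were called higher and 59.9% lower in KO cells and 30.3% higher and 59.0% lower in control cells. Il2rg led the higher genes at 1.73 ± 0.048 in KO cells and 1.88 ± 0.048 in control cells. Il10ra was higher by 1.40 ± 0.045 in KO cells and 0.53 ± 0.045 in control cells, Jak1 by 1.36 ± 0.040 in KO cells and 1.30 ± 0.040 in control cells, Il13ra1 by 1.32 ± 0.050 in KO cells and 1.13 ± 0.050 in control cells, and Jak2 by 0.98 ± 0.039 in KO cells and 0.93 ± 0.039 in control cells. Ifngr1 led the lower genes at -1.59 ± 0.049 in KO cells and -1.69 ± 0.049 in control cells, followed by Il4ra at -0.69 ± 0.081 in KO cells and -1.07 ± 0.081 in control cells. With TMM factors 7 genes were higher and 2 lower in KO cells, beside 44.8% and 44.6% of all genes. In control cells 8 were then higher and 2 lower, beside 44.9% and 44.0%. Il4ra and Ifngr1 kept their lower calls there, with TMM values for Il4ra of -0.19 in KO cells and -0.60 in control cells, and for Ifngr1 of -1.09 in KO cells and -1.22 in control cells.

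Between genotypes under M1, 8 of the 10 genes were higher in KO cells, led by Il10ra, and Jak3 was lower, whereas 16.9% of all tested genes were called higher and 33.4% lower. Il10ra averaged 127 ± 2.0 TPM in KO cells and 64.3 ± 1.1 TPM in control cells, a log2 fold change of 0.97 ± 0.045 (SE; limma adjusted p = 1.29e-12) and a 1.98-fold ratio. Il13ra1 averaged 237 ± 4.2 TPM in KO cells and 159.6 ± 1.9 TPM in control cells, a change of 0.57 ± 0.050 (SE; limma adjusted p = 1.61e-08). Ifngr1 averaged 21.8 ± 1.4 TPM in KO cells and 16.6 ± 0.81 TPM in control cells, a change of 0.37 ± 0.049 (SE; limma adjusted p = 3.06e-06). These receptor chains had no overlap between genotypes, but nor did the other genes of the 10, among them Il4ra, which was not called. How many of all tested genes showed no overlap was not counted. Changes of Jak2 (0.20 ± 0.039), Il2rg (0.18 ± 0.048) and Ifngr2 (0.18 ± 0.035) were smaller and also called. Jak3 averaged 11.8 ± 0.79 TPM in KO cells and 15.5 ± 0.41 TPM in control cells, a change of -0.37 ± 0.088 (SE; limma adjusted p = 0.00147). Il10rb (0.11 ± 0.041 SE, limma adjusted p = 0.037) and Jak1 (0.10 ± 0.040 SE, limma adjusted p = 0.0413) were near the threshold. The Il10rb call was lost without control replicate 1 (limma adjusted p = 0.156) or 3 (0.0676), without KO replicate 1 (0.104) or 2 (0.0804), and without the variance trend (0.0518). The Jak1 call was lost when any 1 of the 6 libraries was left out, with limma adjusted p of 0.111, 0.0584 and 0.084 without control replicates 1, 2 and 3, and 0.0637, 0.143 and 0.053 without KO replicates 1, 2 and 3. It was also lost without the variance trend (limma adjusted p = 0.0593) and with no filter on low values (0.0539). Il4ra was not called, at 0.16 ± 0.081 (SE; limma adjusted p = 0.102), but was with TMM factors, where 9 genes were higher and 1 lower and 24.7% of all genes were called higher and 26.6% lower. The share of higher calls among all called genes was 48.2% with TMM factors, against 33.6% as deposited.

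Under M2, 6 of the 10 genes were higher in KO cells and 0 lower, with 12.7% of all tested genes called higher and 18.3% lower. Il13ra1 averaged 94.7 ± 4.1 TPM in KO cells and 72.4 ± 1.1 TPM in control cells, a log2 fold change of 0.38 ± 0.050 (SE; limma adjusted p = 8.19e-06). Il2rg averaged 77.9 ± 3.5 TPM in KO cells and 61.6 ± 4.0 TPM in control cells, a change of 0.33 ± 0.048 (SE; limma adjusted p = 2.44e-05), and Ifngr1 67.6 ± 2.1 TPM in KO cells and 55.6 ± 1.8 TPM in control cells, a change of 0.28 ± 0.049 (SE; limma adjusted p = 0.000214). Il10rb (0.17 ± 0.041), Jak2 (0.16 ± 0.039) and Ifngr2 (0.14 ± 0.035) were also called. Il4ra averaged 33.1 ± 0.71 TPM in KO cells and 38.5 ± 1.2 TPM in control cells, and its change of -0.21 ± 0.081 (SE; limma adjusted p = 0.0557) missed the threshold although the libraries did not overlap. It passed when only the M2 groups were fitted (limma adjusted p = 0.00991). Il10ra (0.11 ± 0.045 SE, limma adjusted p = 0.0797), Jak3 (-0.19 ± 0.088 SE, limma adjusted p = 0.115) and Jak1 (0.035 ± 0.040 SE, limma adjusted p = 0.548) were not called either. Jak1 was called without KO replicate 1 (0.0282), and Il10ra with TMM factors (0.0271), which gave 7 genes higher and 0 lower, beside 16.6% and 13.6% of all genes. The share of higher calls among all called genes moved to 55% with TMM factors, against 41% as deposited. Beside the 0 lower after adjustment in limma, 2 genes, Il4ra and Jak3, were lower at an unadjusted p below 0.05.

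In M0, 2 genes were higher and 1 lower in KO cells, where 8.86% of all tested genes were called higher and 10.3% lower. Il10ra averaged 32.7 ± 2.0 TPM in KO cells and 22.8 ± 1.4 TPM in control cells (0.50 ± 0.045 SE, limma adjusted p = 8.47e-08). Ifngr1 averaged 66.8 ± 1.5 TPM in KO cells and 57.9 ± 2.0 TPM in control cells (0.20 ± 0.049 SE, limma adjusted p = 0.00507), and Il10rb 48.6 ± 0.79 TPM in KO cells and 58.9 ± 3.3 TPM in control cells (-0.27 ± 0.041 SE, limma adjusted p = 5.46e-05). The other 7 genes had log2 fold changes between -0.079 and 0.21 and were not called. Il4ra was called without control replicate 1 (limma adjusted p = 0.0064) or KO replicate 3 (0.0139), and Jak2 without control replicate 3 (0.0453). Il10ra in M0 and M1 and Ifngr1 in all conditions were thus higher in KO cells, and the same KO and control libraries enter both the stimulation and the genotype comparisons.

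**Figure D3:**
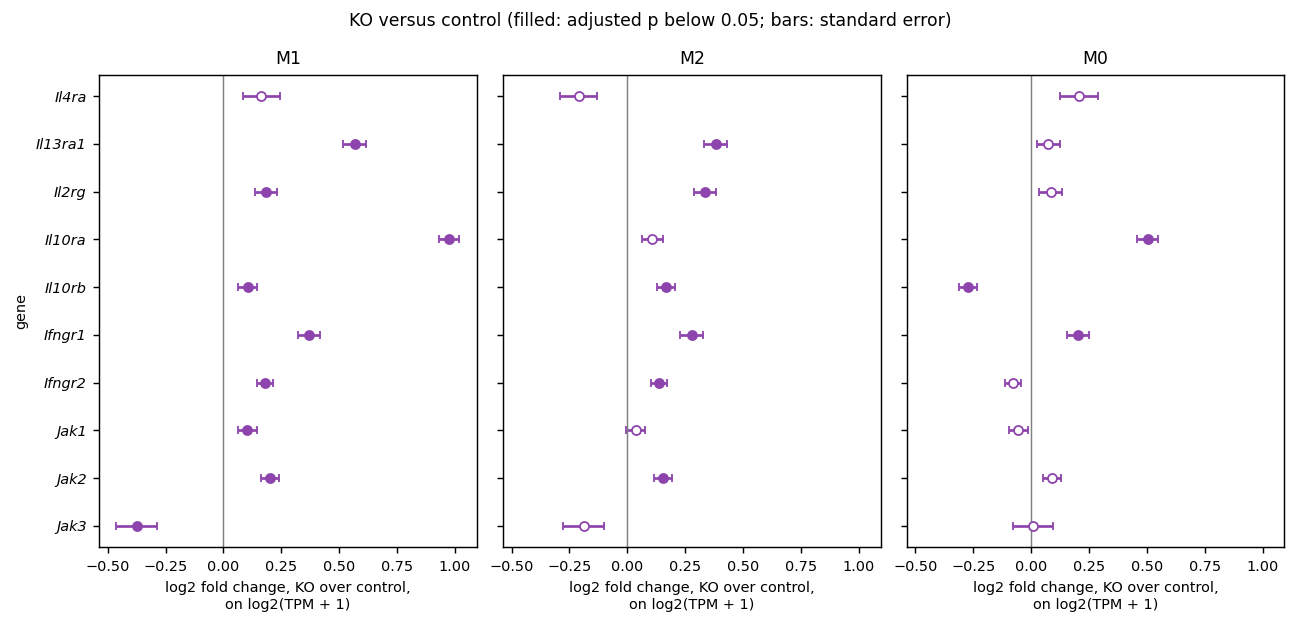
Log2 fold changes on log2(TPM + 1) of KO over control cells for each gene under M1, M2 and M0, with standard errors; filled points have a limma adjusted p below 0.05. Il10ra under M1 lies farthest to the right at 0.97, and Jak3 under M1 is the called gene farthest to the left.

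The response to stimulation itself differed between genotypes for part of the genes, by the interaction term of the same model. For M1, 5 of the 10 genes had a called positive difference, the KO minus the control log2 fold change, and 1 a called negative one, with 12.1% and 23.9% of all tested genes called. Il13ra1 (0.50 ± 0.071 SE, limma adjusted p = 2.15e-05), Il10ra (0.47 ± 0.064 SE, limma adjusted p = 1.22e-05), Il10rb (0.38 ± 0.058 SE, limma adjusted p = 4.27e-05), Ifngr2 (0.26 ± 0.049 SE, limma adjusted p = 0.000416) and Jak1 (0.16 ± 0.057 SE, limma adjusted p = 0.0361) were positive, and Jak3 (-0.38 ± 0.12 SE, limma adjusted p = 0.0217) was negative. For M2, 4 were positive and 2 negative, with 7.06% and 7.05% of all genes called. Il10rb (0.44 ± 0.058 SE, limma adjusted p = 2.34e-05), Il13ra1 (0.31 ± 0.071 SE, limma adjusted p = 0.0056), Il2rg (0.25 ± 0.068 SE, limma adjusted p = 0.0171) and Ifngr2 (0.22 ± 0.049 SE, limma adjusted p = 0.00522) were positive. Il4ra (-0.42 ± 0.11 SE, limma adjusted p = 0.0191) and Il10ra (-0.40 ± 0.064 SE, limma adjusted p = 0.000281) were negative, that is, their rise under M2 was smaller in KO cells. With TMM factors the M1 count was 8 positive and 1 negative, beside 17.4% and 18.9% of all genes, and the M2 count was 4 and 2, beside 8.84% and 5.37%. Among all called genes the share of positive M1 differences was 48% with TMM factors and 33.6% as deposited, and that of M2 differences 62.2% and 50%. Leaving out 1 library ended the calls of Jak1 and Jak3 for M1 and of Il4ra and Il2rg for M2, with limma adjusted p between 0.0523 and 0.0867.

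**Figure D4:**
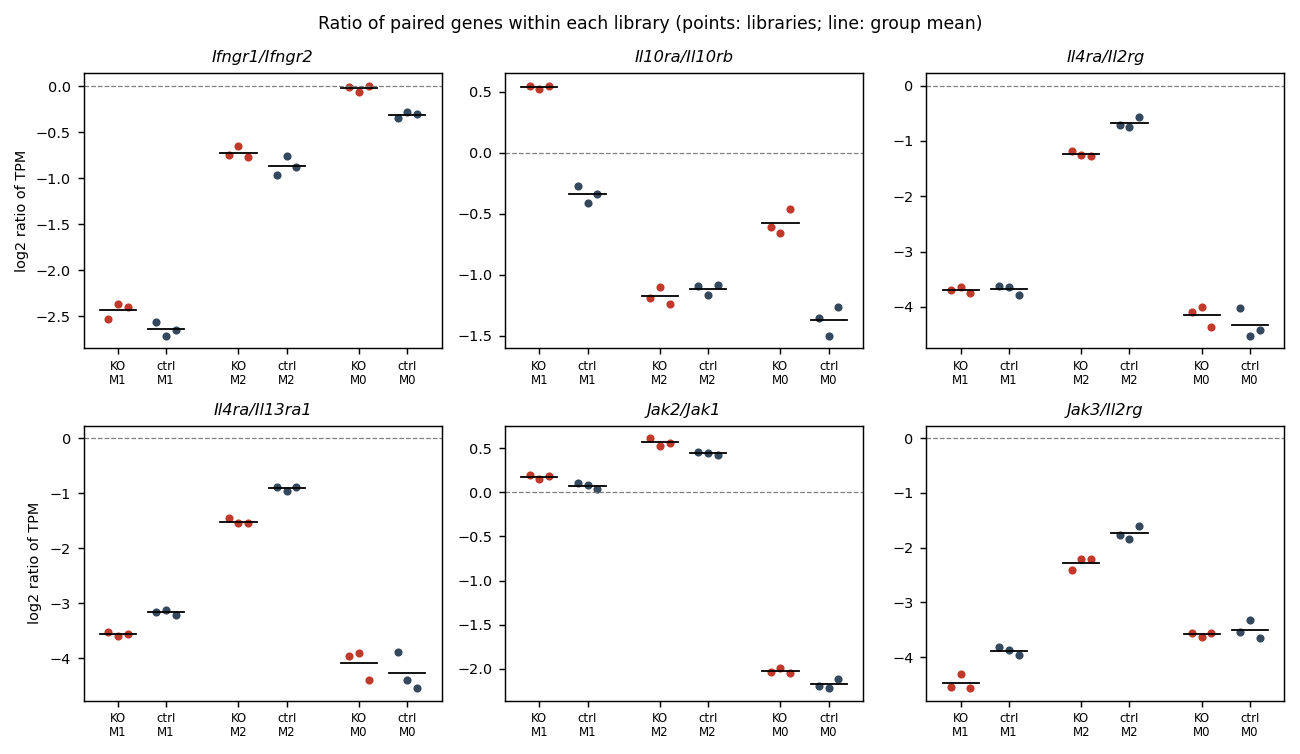
Log2 ratio of the TPM of 1 chain or kinase to that of its partner (vertical axes; the dashed line at 0 marks equal TPM) in each library (points; KO red, control, written ctrl, dark) with group means (horizontal lines) under M1, M2 and M0. The Ifngr1 to Ifngr2 ratio is lowest under M1, and the Il10ra to Il10rb ratio exceeds 1 in the KO cells under M1 and nowhere else.

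Ratios between partner genes within a library do not depend on how libraries are scaled, and TPM are per length. The pairs were chosen after the values had been seen, so the ratios are descriptions. The Ifngr1 to Ifngr2 ratio averaged 0.186 in M1 KO cells and 0.161 in M1 control cells, 0.606 in M2 KO cells and 0.549 in M2 control cells, and 0.984 in M0 KO cells and 0.807 in M0 control cells. The Il10ra to Il10rb ratio averaged 1.45 in M1 KO cells, against 0.790 in M1 control cells, 0.443 in M2 KO cells and 0.461 in M2 control cells, and 0.673 in M0 KO cells and 0.387 in M0 control cells. Within M1 the KO and control libraries did not overlap in either ratio. The Il4ra to Il2rg ratio was 0.425 in KO cells and 0.625 in control cells under M2, and between 0.0506 and 0.0780 in the other 4 groups. The Jak2 to Jak1 ratio was 1.13 in KO cells and 1.05 in control cells under M1, 1.48 in M2 KO cells and 1.36 in M2 control cells, and 0.246 in M0 KO cells and 0.221 in M0 control cells. Jak1 therefore was the most abundant of these 3 kinases in M0, with 73.1% of their summed TPM in KO cells and 74.7% in control cells, and Jak2 was so under M1, with 51.4% in KO cells and 49.1% in control cells, and under M2, with 54.5% in KO cells and 51.6% in control cells.

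Other genes of the same pathways were read from lists drawn up for this work. Of 7 tested genes among Tyk2, the fourth Janus kinase, and the STATs, 5 rose and 1 fell under M1 in KO cells. In control cells 5 rose and 2 fell, but with TMM factors 7 rose in each genotype. Of all tested genes, 32.0% rose and 58.4% fell under M1 in KO cells, and 32.2% rose and 56.9% fell in control cells. With TMM factors 47.6% of all genes rose in each genotype. Stat2 had log2 fold changes of 4.47 in KO cells and 4.40 in control cells, and Stat3 of 2.69 in KO cells and 2.53 in control cells. Under M2, 4 rose and 2 fell in each genotype, with Stat3 at 1.09 in KO cells and 1.01 in control cells. For M2, 29.6% of all genes rose and 43.2% fell in KO cells, and 28.4% and 37.0% in control cells. With TMM factors 4 of the list rose and 1 fell under M2 in KO cells, and 4 rose and 0 fell in control cells. Of all 11548 genes, 35.6% then rose and 34.5% fell in KO cells, and 3834 rose and 3520 fell in control cells. In KO against control cells, 6 were higher and 0 lower under M1, with Stat5a at 0.37 and Tyk2 at 0.32. In limma 0 were lower at an unadjusted p below 0.05 and with TMM factors as well. Of all genes, 16.9% were higher and 33.4% lower there, or 24.7% and 26.6% with TMM factors. The median of the list was 1.79 in KO cells and 1.60 in control cells for M1, where the all-gene medians were below 0.

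Among 18 tested feedback inhibitors and phosphatases, 10 rose and 7 fell under M1 in KO cells and 10 rose and 5 fell in control cells. With TMM factors 16 rose and 1 fell in KO cells, and 16 rose and 2 fell in control cells. Of all genes, 32.0% rose and 58.4% fell in KO cells and 32.2% and 56.9% in control cells. With TMM factors these shares were 47.6% and 42.6% in KO cells, and 47.6% and 41.9% in control cells. The ubiquitin-like protease gene Usp18, a brake on interferon receptors, changed by 6.36 in KO cells and 6.54 in control cells, and Socs3, an inhibitor of JAK signalling, by 5.26 in KO cells and 5.69 in control cells. Under M2, Cish, a target and inhibitor of STAT5 signalling, and Socs1, an inhibitor of JAKs, led: Cish changed by 6.73 in KO cells and 7.02 in control cells, and Socs1 by 6.21 in KO cells and 6.08 in control cells. The list's M1 median was 0.18 in KO cells and 0.23 in control cells. Under M2, 8 of the 18 rose and 6 fell in KO cells, and 8 rose and 3 fell in control cells. The M2 shares of all genes were 29.6% and 43.2% in KO cells, and 28.4% and 37.0% in control cells. With TMM factors 9 of the 18 rose and 3 fell under M2 in KO cells, and 10 rose and 3 fell in control cells. Of all 11548 genes, 35.6% then rose and 34.5% fell in KO cells, and 3834 rose and 3520 fell in control cells. Socs3 was higher in KO than in control cells in each condition, by 0.59 under M1, 1.03 under M2 and 1.01 in M0 (limma adjusted p at most 3.4e-08). In KO against control cells, 6 of the 18 were higher and 4 lower under M1, beside 16.9% and 33.4% of all tested genes. The M2 comparison gave 4 higher and 3 lower, near the 12.7% and 18.3% of all genes. The M0 comparison gave 4 higher and 1 lower, beside 8.86% and 10.3%. With TMM factors the M1 comparison gave 9 higher and 3 lower, beside 24.7% and 26.6% of all genes. The M2 comparison then gave 5 higher and 1 lower, beside 16.6% and 13.6%.

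Of 18 tested other cytokine receptor chains, from receptor families that use JAKs, 10 rose and 7 fell under M1 in KO cells. In control cells 10 rose and 6 fell. With TMM factors these counts became 12 and 5 in KO cells and 12 and 4 in control cells. Of all tested genes, 32.0% rose and 58.4% fell under M1 in KO cells, and 47.6% rose and 42.6% fell there with TMM factors. Under M2, 12 of the 18 rose and 4 fell in each genotype, with either scaling, beside 29.6% and 43.2% of all genes in KO cells and 28.4% and 37.0% in control cells. The medians were 0.40 in KO cells and 0.77 in control cells under M1, and 0.50 in KO cells and 0.48 in control cells under M2. Il15ra, the IL-15 chain, changed by 3.71 in KO cells and 3.69 in control cells under M1. Il13ra2, a decoy chain for IL-13, was higher in KO cells by 1.08 under M1 and 1.29 under M2, and Il11ra1 by 1.98 under M2 and 1.96 in M0. Il7r, the IL-7 chain, was lower in KO cells under M1, at -1.04. Of 7 tested receptors for LPS and TGF-β, 3 rose and 2 fell under M1 in KO cells. In control cells 3 rose and 3 fell, and with TMM factors 4 rose and 2 fell in each genotype. The M1 shares of all genes were 32.0% and 58.4% in KO cells, and 32.2% and 56.9% in control cells. Under M2, 5 rose and 1 fell in KO cells and 4 rose and 2 fell in control cells, beside the M2 shares given above. The M2 medians were 1.11 in KO cells and 1.23 in control cells. Acvrl1, Cd14 and Ly96 rose by 3.52, 2.23 and 1.97 in M1 KO cells. Tlr4 and Tgfbr1 fell there, to means of 21.4 TPM and 14.3 TPM, against 47.4 TPM and 41.7 TPM in M0 KO cells. In KO against control cells 4 of the 7 were higher and 1 lower under M1, the same counts were found under M2, and 2 were higher and 1 lower in M0. Those genotype comparisons called 16.9% of all tested genes higher and 33.4% lower for M1 cells. For M2 cells the shares were 12.7% higher and 18.3% lower, and for M0 cells 8.86% and 10.3%. Under M1 Tgfbr2, a TGF-β receptor, was higher at 0.37 and Tlr4, the LPS receptor, lower at -0.51. Under M2 Cd14, the LPS co-receptor, was higher at 0.66 and Acvrl1, a type I receptor of the TGF-β family, at 0.59, and Tgfbr1, a TGF-β receptor, was lower at -0.57.

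Of 16 listed STAT6 and STAT3 target genes, 12 were tested. Chil3 and Retnla averaged 0 TPM in every group, and Ccl17 and Cdh1 also missed the filter. Under M1, 10 rose and 1 fell in KO cells, and 11 rose and 1 fell in control cells. Of all tested genes, 32.0% rose and 58.4% fell under M1 in KO cells, and 32.2% and 56.9% in control cells. TMM factors gave the same list counts, while 47.6% of all genes then rose in each genotype. The M1 medians of the list were 2.03 in KO cells and 1.95 in control cells, beside all-gene medians of -0.43 and -0.38. Under M2, 11 rose and 0 fell in each genotype, with medians of 2.47 in KO cells and 1.86 in control cells. Of all tested genes, 29.6% rose and 43.2% fell under M2 in KO cells, and 28.4% and 37.0% in control cells. Arg1, the arginase gene, changed by 10.26 in KO cells and 10.70 in control cells. Its M0 values were low, at 0.59, 4.83 and 6.58 TPM in KO cells and 0.34, 0 and 0.07 TPM in control cells, so the fitted value is no bound. In KO against control cells 8 of the 12 were higher and 0 lower under M2, beside 12.7% and 18.3% of all tested genes, and Tgm2, the transglutaminase 2 gene, changed by 2.14. Under M1, 6 were higher and 2 lower, with Ccl22, a chemokine gene, at 3.02 and Clec10a, a C-type lectin gene, at -0.64, beside 16.9% and 33.4% of all tested genes. In M0, 3 were higher and 2 lower, with Nfil3, a transcription factor gene, at -0.50, beside 8.86% and 10.3%. In each of the M2 comparisons limma gave 0 lower at an unadjusted p below 0.05 and with TMM factors as well.

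Genes whose 6 group means followed those of a receptor or kinase most closely were found by the root mean square difference of centred log2(TPM + 1) means over the 6 groups. They were read for the 9 genes that span at least 1 on that scale, and Ifngr2 was left out. For Jak1 the nearest was Map2k1, a kinase of the MAP kinase cascade, at a difference of 0.0225, with 371 TPM in M1 KO cells and 338 TPM in M1 control cells. For Il2rg, Appl2 (0.0701) and the kinase gene Tyk2 (0.0852) were nearest, and for Il10rb it was Slc4a2 (0.0617). Slc9a4 (0.0634) was nearest to Il13ra1, Uqcr10 (0.08) to Ifngr1 and Fam210b (0.0938) to Jak3. Jak2 was nearest to Itga5, an integrin subunit gene, at 0.135, Il10ra to Ddt at 0.167 and Il4ra to Myo1e at 0.234, the widest of these distances.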

How the data were processed

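Expression was measured by poly(A) RNA sequencing of 18 libraries. The authors deposited TPM per gene symbol, with the same total in every library, so depth is unknown and no counting interval could be given. A build, mm10, and Trim Galore, without a version, appear per the submitters' processing notes. Aligner, quantifier and annotation: not given in the sources used here. As shares of a fixed total, TPM of most genes go down where a few go up strongly. No label states separate cultures for the replicates, and p-values thus cover the spread of these libraries, possibly technical.

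Groups came from the sample titles. Tests used limma 3.58.1 (R 4.3.3) with trend and robust variance moderation on log2(TPM + 1), with 1 mean per group for all 6 groups, two-sided. Genes entered with 1 TPM in 3 libraries or more, 11548 in all, over which Benjamini-Hochberg adjustment ran in each of 11 comparisons, and an adjusted p below 0.05 made a call. Fold changes on this scale understate the change of low genes. The fit was tested on simulated data. Alternatives were TMM factors (computed on TPM), median-ratio factors, no filter or one of 5 TPM, a pseudocount of 0.1 TPM, no variance trend, a replicate block, each comparison fitted on its own groups, and leaving out each library in turn.

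The members and the gene lists were chosen with earlier results of these data known. The genes named are the 10 members, Kdm7a, per list and comparison up to 3 called genes with the largest changes that average 5 TPM or more on their higher side, and up to 3 genes nearest in pattern to each member. Genes named for an overlap, a position or a missed filter, and markers, stand outside that rule. Promoter windows are from RefSeq (GRCm38.p6), matched by symbol. Some results are not reported here.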

Additional observations from a re-analysis of the deposited data

Results flagged for a closer look

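The response to stimulation differed between KO and control cells in 12 cases by the interaction term of the limma model, counted as the KO minus the control log2 fold change. For Il13ra1 the difference was 0.50 for M1 and 0.31 for M2, and for Il10rb it was 0.38 and 0.44. Ifngr2 gave 0.26 for M1 and 0.22 for M2. For these 3 genes every alternative kept the call in both responses. Il10ra gave 0.47 for M1 and -0.40 for M2, so its response to M1 was the larger in KO cells and its response to M2 the smaller, and both calls were kept under every alternative. Its M0 level was already higher in KO cells, at 32.7 ± 2.0 TPM, against 22.8 ± 1.4 TPM in control cells.

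Il4ra gave -0.42 for M2, and the call was lost without control M0 replicate 2 (limma adjusted p = 0.0542), control M0 replicate 3 (0.0571) or KO M0 replicate 2 (0.0578). Il2rg gave 0.25 for M2, lost without control M0 replicate 2 (0.054). Jak3 gave -0.38 for M1, lost without control M0 replicate 1 (0.0525), control M0 replicate 3 (0.0684) or KO M1 replicate 3 (0.0523). Jak1 gave 0.16 for M1, lost without control M0 replicate 2 (0.0764) or 3 (0.0659), control M1 replicate 1 (0.0733) or 3 (0.0611), KO M0 replicate 1 (0.0789) or 2 (0.0531) or KO M1 replicate 2 (0.0867), and without the variance trend (0.054). Differences called in some alternatives only were those of Il2rg (0.0477) and Jak2 (0.0061) for M1 with TMM factors, of Ifngr1 for M1, called without control M0 replicate 1 (0.0453), control M1 replicate 1 (0.0303) or KO M1 replicate 1 (0.0204) and with TMM factors (0.012), and of Jak1 for M2, called without KO M2 replicate 1 (0.0191). The cause of these differences was not tested.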

How the results depend on the processing

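Of 110 results for the 10 genes over 11 comparisons, 88 kept their direction and their side of the threshold under every alternative, among them all 40 comparisons of M1 or M2 with M0. Of 1660 alternative values, 1596 did so, 29 lost a call, 27 gained one and 8 turned in direction. Those 8 concern M1 against M2, where TPM as deposited gave lower M1 values and rescaling gave higher ones. Il10rb became 0.23 with TMM and 0.20 with median-ratio factors in KO cells, and 0.25 with TMM and 0.23 with median-ratio factors in control cells. Jak3 became 0.066 with TMM and 0.044 with median-ratio factors in KO cells, and 0.23 with TMM and 0.20 with median-ratio factors in control cells. The rescaled KO values of Jak3 were not called (limma adjusted p = 0.452 with TMM and 0.615 with median-ratio factors). The counts of called genes among the 10 ranged over the left-out libraries from 7 to 8 for KO against control cells under M1 (9 with all libraries), from 6 to 7 under M2 (6) and from 3 to 4 in M0 (3), and from 4 to 7 for the difference in response to M1 (6) and to M2 (6). The cause was not tested. TMM and median-ratio factors assume that most genes do not change. Depth is unknown, so counting error could not be separated from the spread between libraries.

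Replicate numbers are shared by all groups, but the labels do not say what they mark. The deviations of same-numbered libraries correlated at -0.16 to 0.15 (median 0.018, 45 pairs, 7 of them above 0.1), and those of different-numbered libraries at -0.21 to 0.18 (median -0.011, 90 pairs, 6 above 0.1). Of 18 libraries 11 had their highest mean correlation with their own number, where numbers without relation would give about 6, a hint of shared numbers from the data. The numbers were not taken to pair the samples because the labels state no pairing. Not every same-numbered pair exceeded 0.1, but that does not exclude a pairing. With a replicate block 9 of the 10 genes were called in KO against control cells under M1, 7 under M2 and 3 in M0. The gain under M2 was Il4ra (limma adjusted p = 0.0465).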

Other observations

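Il10rb and Ifngr2 lie in a row of receptor genes on mouse chromosome 16 (mm10), in the order Ifnar2, Il10rb, Ifnar1 and Ifngr2, followed by Tmem50b, from 91372783 for the start of Ifnar2 to 91597680 for the end of Tmem50b. Ifnar1 and Ifnar2 encode the chains of the type I interferon receptor. Under M1, Ifnar1 averaged 41.9 ± 1.2 TPM in KO cells and 30.2 ± 0.38 TPM in control cells, against 17.3 ± 0.13 TPM in M0 KO cells and 17.99 ± 0.36 TPM in M0 control cells (SD, n = 3 each). Its log2 fold change for M1 over M0 was 1.23 in KO cells and 0.71 in control cells, and the difference between these responses was 0.52 ± 0.061 (SE; limma adjusted p = 2.21e-06), the same direction as for Il10rb and Ifngr2. Tmem50b also rose under M1, by 1.73 in KO cells and 1.40 in control cells. Its difference between the M1 responses had that direction too, at 0.32 ± 0.088 (SE; limma adjusted p = 0.00722). For M2 the Tmem50b difference was -0.059 and was not called. For Ifnar2 the M1 change was 0.085 in KO cells and -0.065 in control cells and was not called on TPM as deposited, while TMM factors gave called rises of 0.70 in KO cells and 0.48 in control cells. Under M2, Ifnar2 fell by 0.30 in KO cells and 0.36 in control cells on the log2 scale (limma adjusted p at most 9.07e-05), where Ifnar1, Il10rb and Ifngr2 rose. The genes were chosen for their position after the values of Il10rb and Ifngr2 had been seen.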
